A study of Homo sapiens with 6 samples.

Results

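The VEGF system of HEK293 cells was described here by 9 genes, namely the ligands *VEGFA*, *VEGFB*, *VEGFC* and *PGF*, the receptors *KDR*, *FLT1* and *FLT4*, and the neuropilins *NRP1* and *NRP2*. They were picked by name, as the rows of the deposited count table with these symbols, and all 9 were found among its 26485 gene names. RNA-seq was performed on 3 HEK293 cultures after knockdown of the long noncoding RNA *HSALNG0134318*, which lies in 22q11.2, and on 3 control cultures. HEK293 is an established line derived from human embryonic kidney. The knockdown was a transient transfection with a Smart Silencer, a blend of small interfering RNAs and antisense oligonucleotides against that RNA. The controls are labelled NC in the description and WT in the genotype, and the text of the study does not name what they received. All cultures belong to a single line, and no source used here gives a time after transfection or a second silencer. The silenced RNA is not a row of the count table, so the labels could not be checked against it.

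Vascular endothelial growth factors (VEGFs) are secreted dimers that bind tyrosine kinase receptors on the cell surface. VEGF-A acts mainly through VEGF receptor 2, the product of *KDR*, while VEGF receptor 1, the product of *FLT1*, binds VEGF-A, VEGF-B and placental growth factor tightly and, in a soluble form, can hold VEGF-A away from other receptors. VEGF-C signals through VEGF receptor 3, the product of *FLT4*, in lymphatic vessels, and the neuropilins bind certain VEGF forms and class 3 semaphorins as co-receptors. In the developing kidney, VEGF-A made by podocytes is needed to form the capillaries of the glomerulus.

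After knockdown, *PGF* fell to 33.7% and *KDR* to 55.6% of the control level, and no member of the family was called higher. The other 7 genes did not pass the test. *FLT1* and *NRP2* lay at 125% and 127% of the control level without reaching the threshold. The test was the quasi-likelihood F test of edgeR, fitted over the 14877 genes left by a filter on low counts. Called genes had a p, adjusted over all of these by the Benjamini-Hochberg method, of under 0.05. All 9 members passed the filter, with 5304 to 6714 counts in all per culture out of totals of 13900965 to 16869948. The 2 called members make 22.2% of the family, where 4.64% of all genes tested were called lower and 5.4% were called higher. In 4 members (44.4%), the values of the knockdown group lay wholly outside those of the control group, as they did in 32.2% of all genes tested. With 9 genes, chosen with earlier results of these data known, these shares are given as a description.

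On hg38, in GENCODE release 44, the called genes *PGF* (chr14:74941834-74955626) and *KDR* (chr4:55078481-55125595) lie on the minus strand, as do *VEGFC* (chr4:176683538-176792922), *FLT1* (chr13:28300346-28495145), *FLT4* (chr5:180601506-180649624) and *NRP1* (chr10:33177492-33336262). *VEGFA* (chr6:43770184-43786487), *VEGFB* (chr11:64234584-64239264) and *NRP2* (chr2:205681990-205798133) lie on the plus strand. The 5′ flanks of the genes that fell, *PGF* and *KDR*, are shown because these were the called members. Each run is the 250 bases before the RefSeq gene start on GRCh38.p14, written 5′ to 3′ on the gene's strand. Capitals mark the GC box GGGCGG or its reverse complement CCGCCC, the letters bound by SP1. That of *PGF* is chr14:74955765-74956014 and that of *KDR* is chr4:55125596-55125845, both on the minus strand, and neither overlaps a GENCODE exon of its gene.

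PGF: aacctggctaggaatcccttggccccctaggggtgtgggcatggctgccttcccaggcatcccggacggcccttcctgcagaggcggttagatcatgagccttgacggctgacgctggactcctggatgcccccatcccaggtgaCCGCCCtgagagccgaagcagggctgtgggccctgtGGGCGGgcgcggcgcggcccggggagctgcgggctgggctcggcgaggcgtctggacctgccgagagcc
KDR: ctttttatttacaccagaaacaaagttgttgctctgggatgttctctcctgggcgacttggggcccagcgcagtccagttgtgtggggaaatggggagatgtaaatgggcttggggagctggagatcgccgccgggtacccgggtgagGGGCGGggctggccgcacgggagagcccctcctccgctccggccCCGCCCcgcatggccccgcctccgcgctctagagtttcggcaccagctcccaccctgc

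Each window held 2 GC boxes, counted on both strands, and neither held the TATA box TATAAA. RefSeq windows were at hand for 6 members (*VEGFB*, *VEGFC*, *PGF*, *KDR*, *FLT1* and *NRP2*). All 6 held a GC box, against 42.6% of 35116 windows of the same length over all genes. TATAAA was found in the window of *FLT1* alone among them (10.7% of all windows). The hypoxia response element has a 5-base core that starts with A or G. ACGTG was in none of the 6 windows (18.5% of all). GCGTG was in those of *VEGFB*, *VEGFC* and *FLT1* (32.2% of all). A pair of GAAA copies with 2 bases between them, the core of the interferon-stimulated response element, was in none of the 6 (3.02% of all). Both strands were searched, and the cores with A and with G cannot start at the same base. All 6 flanks were richer in G and C than the median window (58.0%). *KDR* (65.2%) was the lowest of them, and *PGF* (70.8%) lay among the uncalled *NRP2* (70.0%), *FLT1* (73.2%), *VEGFC* (74.0%) and *VEGFB* (82.8%). GC boxes were likewise not fewer in the uncalled genes, with 2 in *VEGFC*, 3 in *FLT1* and in *NRP2*, and 6 in *VEGFB*. These are matches of letters and not binding data.

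Among the ligands, the clearest change was in *PGF*, which encodes placental growth factor, a ligand of VEGF receptor 1 that does not bind VEGF receptor 2. *PGF* had 24.1, 37.6 and 27.9 normalized counts in knockdown replicates 1, 2 and 3 and 89.8, 128 and 47.3 in control replicates 1, 2 and 3. The knockdown cultures lay close together and below every control, whereas the controls were spread widely, with replicate 2 the highest and replicate 3 the lowest. The group mean was 88.2 ± 40.2 in controls and 29.9 ± 6.94 after knockdown (SD, n = 3 cultures). In edgeR, the log2 fold change of *PGF* was -1.57, with a standard error of 0.35, a 95% interval of -2.33 to -0.81 and an adjusted p of 0.017. The raw counts were low, at 25 to 36 after knockdown and 46 to 143 in controls. By counting error alone, the 36 counts of knockdown replicate 2 have an exact Poisson 95% interval of 25.2 to 49.8, which reaches the 46 counts of control replicate 3. When 1 culture was left out, the log2 fold change stayed between -1.86 and -1.20, and the call was lost without knockdown replicate 1 (adjusted p of 0.085), knockdown replicate 3 (0.073) or control replicate 1 (0.063). Control replicate 2 also lay apart from the other controls over all genes, with a chi-square per gene of 26.6 and 28.1 against them, where controls 1 and 3 gave 9.90. Its part in the *PGF* result can be read from the fit without it, which gave a log2 fold change of -1.20 and kept the call. By the same chi-square, knockdown replicates 2 and 3 were the closest pair within a group, at 1.94. Knockdown replicate 1 gave 6.30 and 6.49 against them. The knockdown cultures were thus closer to each other over all genes than the controls were, and the reason was not tested.

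*VEGFA*, which encodes the main VEGF receptor 2 ligand, had 668, 662 and 754 normalized counts in the knockdown group and 715, 889 and 797 in the control group, in the order of replicates 1, 2 and 3. The groups overlapped, since knockdown replicate 3 exceeded control replicate 1. The log2 fold change was -0.21 (95% interval -0.45 to 0.04, adjusted p of 0.28), and -0.12 without control replicate 2.

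*VEGFB* encodes a ligand of VEGF receptor 1 linked to fatty acid uptake in endothelium. It had 339, 313 and 289 normalized counts in the knockdown group and 370, 538 and 320 in the control group. Control replicate 2 stood well above the other 5 cultures, and control replicate 3 lay inside the knockdown range. The log2 fold change was -0.39 (95% interval -0.78 to 0.01, adjusted p of 0.19), and it moved to -0.14 without control replicate 2.

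*VEGFC*, the lymphatic ligand of VEGF receptor 3, had 132, 121 and 145 normalized counts in the knockdown group and 96.9, 142 and 128 in the control group. The control range nearly covered the knockdown range, with a log2 fold change of 0.12 (95% interval -0.29 to 0.52, adjusted p of 0.73). Its sign turned without control replicate 1 (-0.02). VEGF-D, the remaining ligand of VEGF receptor 3, is listed under its older symbol *FIGF* with 0 to 7 counts per culture and did not pass the filter.

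**Figure D1:**
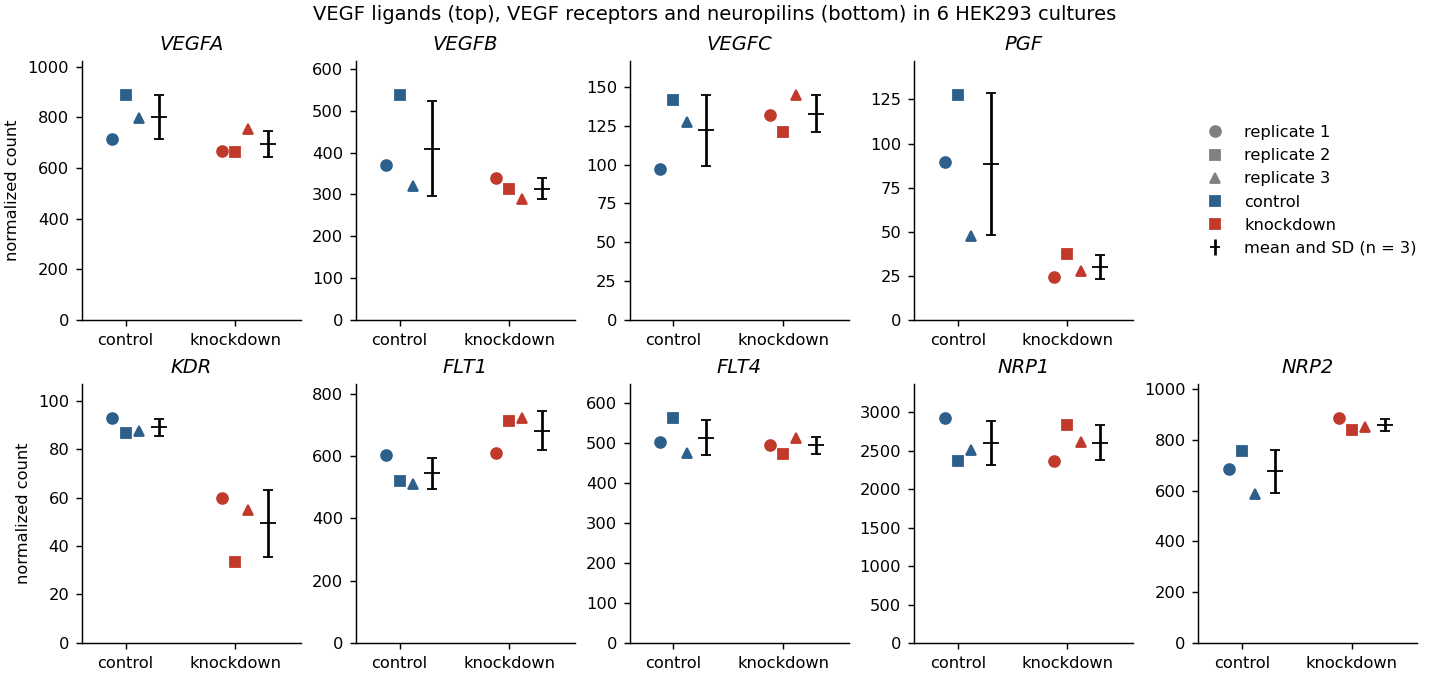
Normalized counts (vertical axes, each from 0) of the 4 ligands, 3 receptors and 2 neuropilins in the 3 control cultures (blue) and 3 knockdown cultures (red), with marker shapes for replicates 1 to 3 and black bars for the mean and SD. The *PGF* and *KDR* knockdown values lie below every control, those of *FLT1* and *NRP2* lie above every control, and the other 5 genes overlap.

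Of the receptors, *KDR* was lower. It encodes VEGF receptor 2, the main signalling receptor for VEGF-A. *KDR* had 59.8, 33.4 and 54.7 normalized counts in knockdown replicates 1, 2 and 3 and 92.9, 86.6 and 87.5 in control replicates 1, 2 and 3. The controls agreed closely, and the knockdown cultures all lay below them, with replicate 2 the lowest. The group mean was 89.0 ± 3.40 in controls and 49.3 ± 14 after knockdown (SD, n = 3). In edgeR, the log2 fold change of *KDR* was -0.85, with a standard error of 0.24, a 95% interval of -1.37 to -0.33 and an adjusted p of 0.044. This passed the threshold narrowly. The sign held in every fit that left out 1 culture, with log2 fold changes from -1.01 to -0.63, but 5 of these 6 fits lost the call, with adjusted p of 0.069, 0.18 and 0.11 without knockdown replicates 1, 2 and 3 and of 0.12 and 0.057 without control replicates 1 and 3. Behind these values lie 32 to 62 counts in the knockdown group and 85 to 97 in the control group. The study lists *KDR* among vasculature and endothelium genes that it drew from the same cultures, so its fall is not independent evidence for such a term.

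*FLT1*, the gene of VEGF receptor 1, moved the other way without being called. It had 610, 711 and 722 normalized counts in the knockdown group and 602, 519 and 511 in the control group. The groups did not overlap, though knockdown replicate 1 lay just above control replicate 1. The log2 fold change was 0.32 (95% interval 0.07 to 0.58, unadjusted p of 0.018 and adjusted p of 0.10 from edgeR), and none of 14 alternative settings called it, with adjusted p from 0.052 to 0.33. The table gives 1 row per gene, so full-length and soluble *FLT1* transcripts were not measured separately.

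*FLT4*, the gene of VEGF receptor 3, had 495, 472 and 513 normalized counts in the knockdown group and 502, 562 and 475 in the control group. These ranges overlapped almost fully, and the log2 fold change was -0.06 (95% interval -0.31 to 0.19, adjusted p of 0.79), and it turned to 0.01 without control replicate 2.

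*NRP1*, the neuropilin that joins VEGF receptor 2 when VEGF-A binds, was the most abundant member. It had 2370, 2831 and 2620 normalized counts in the knockdown group and 2927, 2372 and 2504 in the control group. Both groups spanned nearly the same range, and the log2 fold change was 0.00 (95% interval -0.23 to 0.23, adjusted p of 0.99). Its sign turned in 3 of the 6 fits without 1 culture, within -0.06 to 0.10.

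*NRP2*, the neuropilin associated with VEGF receptor 3 and lymphatic vessels, was higher in each knockdown culture than in any control. It had 886, 838 and 851 normalized counts in the knockdown group and 685, 755 and 586 in the control group. The knockdown values were tight and the controls more scattered. The log2 fold change was 0.34 (95% interval 0.10 to 0.59, unadjusted p of 0.011 and adjusted p of 0.077 from edgeR). It was called in 2 of 14 alternative settings, without control replicate 2 (log2 fold change 0.43, adjusted p of 0.0095) and after a correction for GC content and transcript length (0.30, adjusted p of 0.047).

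**Figure D2:**
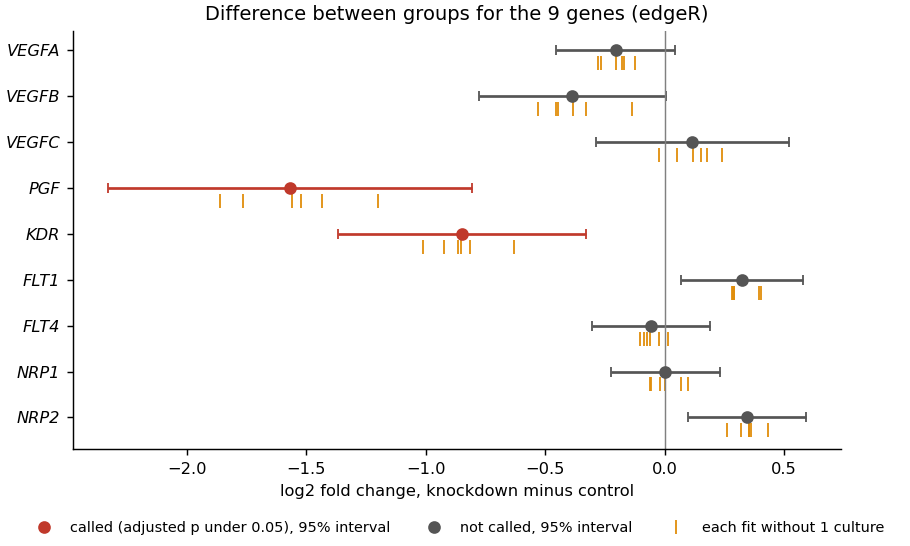
Log2 fold changes (horizontal axis, knockdown minus control) of the 9 genes with 95% intervals, red for called and grey for not called genes, and orange ticks for the 6 fits that each left out 1 culture. *PGF* at -1.57 and *KDR* at -0.85 lie to the left of 0 with all their ticks, and the ticks of *VEGFC*, *FLT4* and *NRP1* fall on both sides of 0.

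To compare levels between genes, counts were expressed as RPKM, the reads per kilobase of the MANE Select transcript scaled to library size, over all 6 cultures. *NRP1* was highest at a mean of 30.7 RPKM (27.9 to 34.5). *VEGFA* (mean 13.8 RPKM) and *VEGFB* (13.3) came next and overlapped each other, but neither overlapped *NRP1*. *NRP2* (7.66), *FLT4* (5.73) and *FLT1* (5.71) overlapped their neighbours in this order and lay below *VEGFB*. *VEGFC* (3.75), *PGF* (2.25) and *KDR* (0.787) were the lowest, with each overlapping the next and *VEGFC* lying below *FLT1*. *KDR*, which ranged from 0.380 to 1.06 RPKM, was thus the scarcest member in cells that carried several times as much *FLT1* and *FLT4* RNA. The order depended on the length used. With the length of all annotated exons joined, *VEGFA* (3.44) moved from the second to the fifth place and *KDR* (0.724) passed *PGF* (0.676).

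**Figure D3:**
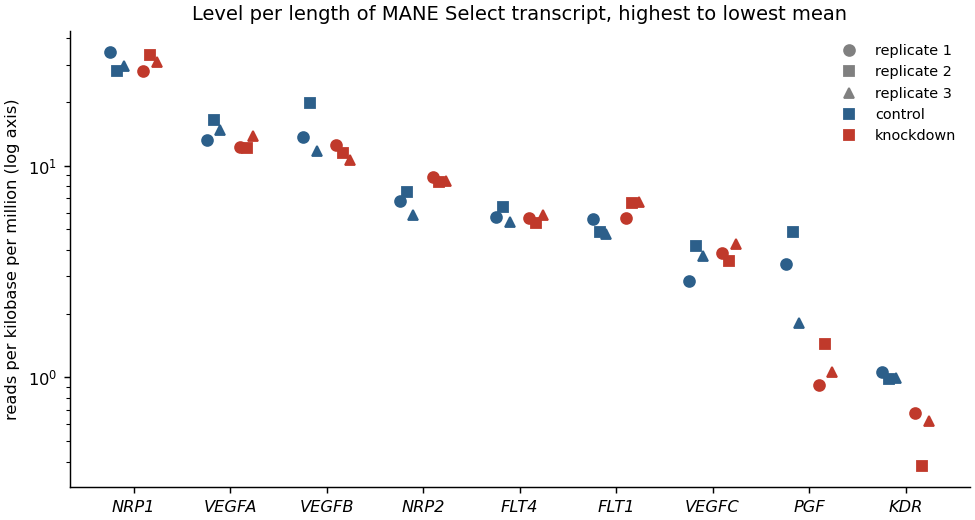
Levels in RPKM (vertical log axis) of each member in 3 control (blue) and 3 knockdown (red) cultures, ordered by the mean over all 6. *NRP1* stands alone at the top at 27.9 to 34.5, and *KDR* is lowest at 0.380 to 1.06.

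The makeup of each class was then compared as shares of summed reads per kilobase of the MANE Select transcript. These do not depend on library scaling, but they do depend on the length used. *KDR* held 5.67%, 3.07% and 4.72% of the receptor reads in knockdown replicates 1, 2 and 3 and 8.54%, 8.06% and 8.91% in control replicates 1, 2 and 3. Every knockdown culture lay below every control, with a mean share of 4.49 ± 1.31% against 8.50 ± 0.426% (SD, n = 3). The exact two-sided permutation p was 0.10, the smallest that 3 cultures against 3 can give, and 0.30 after adjustment over the 3 shares tested. The share of *FLT1* was 47.4% to 53.6% in the knockdown group and 39.6% to 45.3% in the control group, again without overlap.

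Among the ligands, *VEGFA* held 41.6%, 42.5% and 46.5% in knockdown replicates 1, 2 and 3 and 39.8%, 36.2% and 45.8% in control replicates 1, 2 and 3. These shares overlapped (exact permutation p of 0.40, adjusted 0.40). The share of *PGF* was 3.11% to 5.0% after knockdown and 5.64% to 10.8% in controls, and that of *VEGFC* was 12.4% to 14.3% and 8.62% to 11.7%, neither with overlap. *NRP1* held 75.9%, 79.9% and 78.4% of the neuropilin reads after knockdown and 83.4%, 78.7% and 83.4% in controls, with control replicate 2 inside the knockdown range (exact permutation p of 0.20, adjusted 0.30). With the joined-exon length, the difference in the *VEGFA* share, knockdown minus control, was 0.913 percentage points (exact permutation p of 0.70). It was 2.90 with MANE Select lengths. The shares of *PGF*, *VEGFC* and *FLT1* were looked at without a test. Shares within a class are tied to each other, and the level of *VEGFC* itself overlapped between the groups (log2 fold change 0.12).

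**Figure D4:**
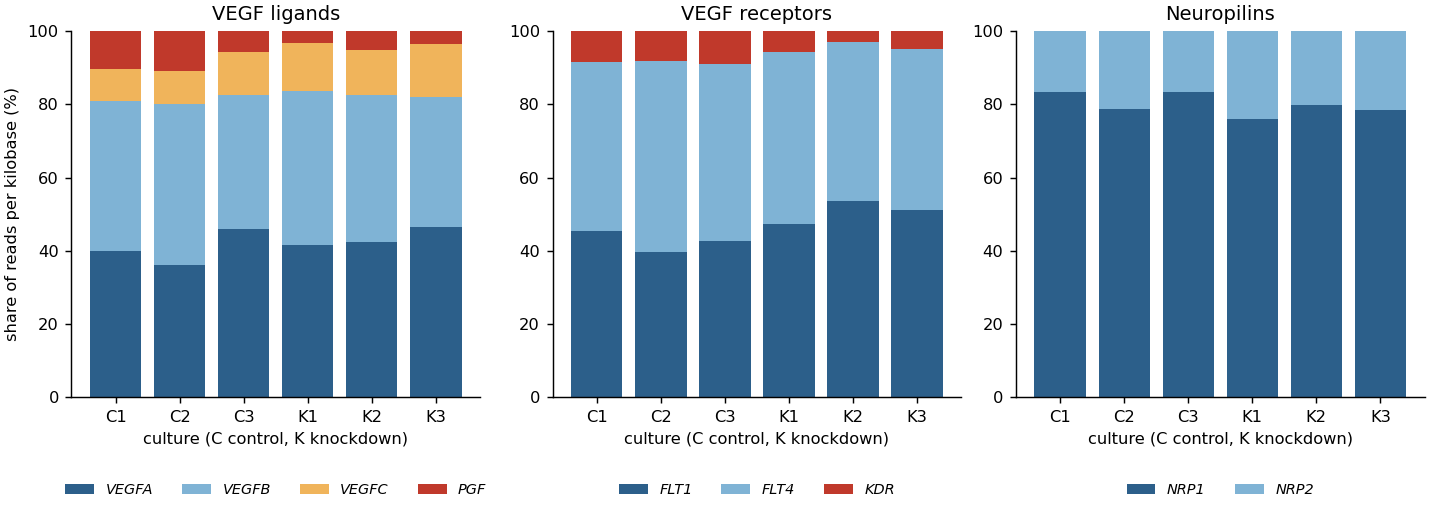
Share of summed reads per kilobase (vertical axis, %) taken by each gene among ligands, receptors and neuropilins, as 1 stacked bar per culture (C1 to C3 control, K1 to K3 knockdown). The red *KDR* segment is 8.06% to 8.91% in controls and 3.07% to 5.67% after knockdown, and the red *PGF* segment is 5.64% to 10.8% and 3.11% to 5.0%.

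The tested genes with at least 100 counts on average whose profile over the 6 cultures was nearest to *PGF* were *IFIT3*, *IFIT2* and *TRIM47*. The measure of likeness, the root mean square difference of mean-centred log2 counts scaled to library size, was 0.11, 0.20 and 0.34 for them, against a root mean square of 0.84 for *PGF* about its own mean. *IFIT3*, an interferon-induced gene, had 91.6, 115 and 104 normalized counts in knockdown replicates 1, 2 and 3 and 281, 410 and 144 in control replicates 1, 2 and 3. It shared with *PGF* the order of the controls, from replicate 2 down to replicate 3. *IFIT2*, of the same gene family, had 73.3, 92.8 and 60.1 against 165, 286 and 106. All 3 were called lower, which, like the shared order of the controls, follows from their choice by likeness to a called gene over the same cultures (adjusted p of 0.026 for *IFIT3*, 0.034 for *IFIT2* and 0.0079 for *TRIM47*). Nearest to *KDR* were *ECM1*, *PLK3* and *STC1*, with differences of 0.09, 0.19 and 0.20 against 0.50 for *KDR* about its own mean. *STC1*, which encodes the secreted hormone stanniocalcin, had 165, 112 and 141 normalized counts in knockdown replicates 1, 2 and 3 and 290, 298 and 204 in control replicates 1, 2 and 3. *STC1* (adjusted p of 0.013) and *PLK3* (0.036) were called lower and *ECM1* (0.060) was not, again among genes chosen for their likeness.

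Around the 9 genes, 6 lists of other genes of the pathway held 76 genes, of which 71 passed the filter. In all, 4 were called higher and 4 lower, or 5.63% in each direction, close to the 5.4% and 4.64% of all genes tested. The median log2 fold change over the lists was -0.07, against -0.02 over all genes tested.

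Among 8 tested genes for VEGF binding and VEGF-C maturation, 1 was lower and none was higher (median -0.05). This was *FURIN*, a protease that cleaves proproteins including VEGF-C, with 2840, 2715 and 2569 normalized counts in knockdown replicates 1, 2 and 3 and 4282, 4715 and 3880 in control replicates 1, 2 and 3. Its groups lay far apart (log2 fold change -0.66 ± 0.10 SE, adjusted p of 0.0017), and it was called in all 14 alternative settings. *PCSK5*, a related protease, had a log2 fold change of 0.45 and was not called (adjusted p of 0.063). *CCBE1* and *ADAMTS3*, which act together on VEGF-C, had -0.11 and -0.38 and were not called.

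None of the 7 tested genes of the hypoxia-inducible factor pathway, which drives *VEGFA* transcription at low oxygen, was called in either direction (median -0.11). *HIF1A* had a log2 fold change of -0.19, *EPAS1* one of 0.24 and *VHL* one of 0.19. The largest, that of *EGLN3*, was -0.51 (adjusted p of 0.076 from edgeR), without overlap of the groups. Of 8 tested hypoxia-inducible genes other than *VEGFA*, 1 was lower (median -0.15). *NDRG1* fell from 803 ± 78.3 to 594 ± 21.7 normalized counts (SD, n = 3; log2 fold change -0.44, adjusted p of 0.027), a call lost in 5 of 14 alternative settings, and *SLC2A1*, the glucose transporter gene, had 0.14 and was not called.

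Of 12 class 3 semaphorins and plexins, the other ligands and partners of neuropilins, 2 were higher and none lower (median 0.20). *SEMA3D*, a secreted semaphorin, rose from 283 ± 56.6 to 455 ± 83.7 normalized counts (log2 fold change 0.69, adjusted p of 0.032), with 299, 220 and 329 in control replicates 1, 2 and 3 and 360, 492 and 514 after knockdown. *PLXNA4*, a plexin that carries the semaphorin signal across the membrane, rose from 260 ± 17.1 to 371 ± 30.9 (0.51, adjusted p of 0.026). *SEMA3D* lost its call in 3 and *PLXNA4* in 5 of 14 alternative settings.

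Of 9 genes for receptor trafficking and phosphatases, 1 was higher (median -0.11). *EPN1*, the gene of epsin 1, an adaptor for endocytosis that takes up VEGF receptor 2, rose from 1196 ± 197 to 2205 ± 117 normalized counts (log2 fold change 0.88 ± 0.12 SE, adjusted p of 0.0013), the largest change on these lists and one called in all 14 settings. *GIPC1*, which binds the tail of *NRP1*, had 0.03 and was not called.

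Of 27 tested genes for signal transduction, 1 was higher and 2 were lower (median -0.08). *PRKCA*, the gene of protein kinase C alpha, fell from 2361 ± 186 to 1459 ± 73.1 normalized counts (log2 fold change -0.69, adjusted p of 0.0012). *MAPKAPK2*, which encodes a kinase activated by p38, fell from 930 ± 16.0 to 601 ± 10.5 (-0.63, adjusted p of 0.0021). *AKT1* rose from 1749 ± 117 to 2331 ± 103 (0.41, adjusted p of 0.014), and lost its call in 4 of 14 settings, while *PRKCA* and *MAPKAPK2* kept theirs in all 14. *PLCG1*, whose product docks on VEGF receptor 2, had 0.16 and was not called.

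**Figure D5:**
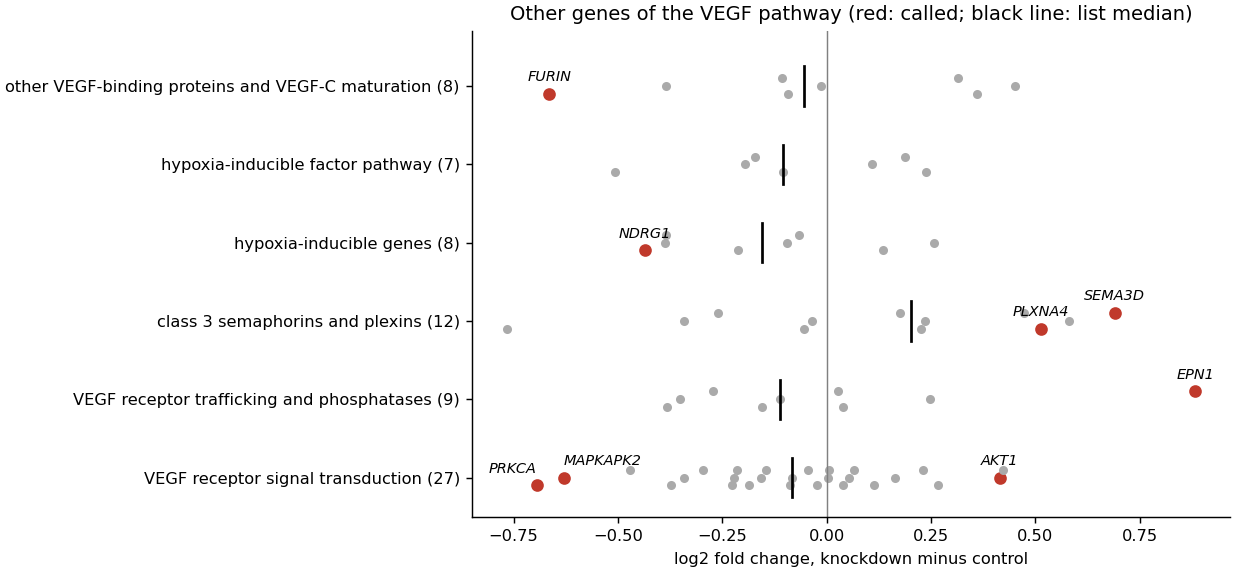
Log2 fold changes (horizontal axis, knockdown minus control) of the 71 tested genes on 6 pathway lists, with the number tested in brackets, red points for the 8 called genes and a black line at each list's median. List medians run from -0.15 to 0.20, and called genes lie between -0.69 for *PRKCA* and 0.88 for *EPN1*.

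Of genes known from HEK293, 8 were looked at, namely *KRT8*, *KRT18*, *VIM*, *CDH2*, *PAX2*, *LHX1*, *EYA1* and *NEFM*. All had counts in every culture and none was called, which cannot by itself identify the line. Their log2 fold changes were positive in 7 and negative in 1 (median 0.20, against -0.02 over all genes tested). The largest was that of *NEFM* at 0.81 (adjusted p of 0.14 from edgeR), with control replicate 3 inside the knockdown range. The sample titles spell the name of the line with a different digit from the HEK293 of the study. *KDR*, *FLT1* and *FLT4* are best known from endothelium, and 10 endothelial markers summed to 2.81 to 3.88 CPM (counts scaled to library size) after knockdown and 2.02 to 4.80 in controls. Of these, *PECAM1*, *CDH5*, *TEK*, *TIE1*, *VWF*, *ERG* and *ROBO4* had at most 9 counts in any culture and *EMCN* had 0 throughout. *CLDN5* had 3 to 16 counts. *ESAM*, with 16 to 50 counts, was the only endothelial marker tested and was not called (-0.13). Of 5 leukocyte markers *CD14* alone was tested and was not called, and their sum was 0.900 to 1.80 and 0.945 to 1.90 CPM. In bulk RNA, fewer cells that express a gene and less RNA per cell cannot be told apart.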

How the data were processed

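RNA-seq counts of 6 HEK293 cultures were analysed, 3 per group, grouped by the sample titles. According to the submitters' processing notes and the paper's methods, FastQC 0.11.9 was used for read quality and Trim Galore 0.6.6 for trimming, and the authors filtered ribosomal RNA, aligned to hg38 with STAR and counted with featureCounts. The authors deposited raw counts per gene, without normalization. The libraries were made with a stranded mRNA kit. The gene annotation and the strand setting of the counting are not given in the sources used here, and *VEGFA*, *NRP1* and *NRP2* share exonic bases with antisense RNAs.

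After filterByExpr and TMM scaling, edgeR 4.0.16 (R 4.3.3) gave a robust quasi-likelihood test of knockdown against control, without a block. Each count was brought to a common effective library size, the mean over cultures, to give normalized counts. Alternatives were DESeq2 1.42.0, limma-voom (limma 3.58.1), other scaling and filters, the replicate number as a block and each culture left out. A loess correction (span 0.3) for GC content and length, known for 14476 genes, and the joined-exon length were added after seeing the data, as was the choice of MANE Select lengths (GENCODE release 44). The models were tested on simulated data. The members and lists were chosen with earlier results of these data known. Named genes were the 9 members, at most 4 called genes per list by smallest p, and the 3 genes nearest to each called member; further list genes were named after their values were seen, to show those not called. RPKM and shares were computed here. Intervals on counts cover counting error only.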

Additional observations from a re-analysis of the deposited data

How the results depend on the processing

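The fall of *PGF* and *KDR* was called under other scalings and filters, the replicate block, DESeq2, limma-voom and the correction for GC content and length, but not in every fit without 1 culture: 0 to 2 members were called lower and 0 to 1 higher in those 6 fits, and 1 was called higher (*NRP2*) after the GC and length correction. Fits without 1 culture have fewer samples, and over all genes they called 233 to 1238 lower and 289 to 1274 higher, against 690 and 804. The GC and length correction called 1391 lower and 1339 higher. Among pathway genes, the fits without 1 culture called 3 to 9 lower and 1 to 10 higher, against 4 and 4, and the GC and length correction called 12 and 11. Of the fits without 1 culture, those without control replicate 2 and without control replicate 3 called more genes than the fit of all 6, over all genes and over the lists. Signs turned in some fits for genes near 0. The log2 fold change of *VEGFC* ran from -0.024 to 0.24 without 1 culture. That of *FLT4* ran from -0.10 to 0.013. That of *NRP1* ran from -0.059 to 0.097 and was -0.018 after the GC and length correction. The causes were not tested. The 3 shares kept their direction in all alternatives. With the replicate number as a block, 619 genes were lower and 714 higher, *PGF* and *KDR* stayed called, and *NDRG1* (adjusted p of 0.055 from edgeR) and *PLXNA4* (0.051) were not. The pairing was not borne out, since deviations of same-numbered cultures from their group means correlated at -0.20, -0.11 and -0.04. With so few cultures, this cannot show that same-numbered cultures shared no batch. *KDR* and *PGF* rest on low counts, and the control counts of *PGF* differed by more than counting error.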
